A study of Homo sapiens with 12 samples.

Results

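The genes described here are 10 Wnt/beta-catenin targets and feedback regulators (AXIN2, AXIN1, LGR5, NKD1, RNF43, ZNRF3, ASCL2, TCF7, LEF1 and SP5) out of 58051 genes counted. They were matched by Ensembl identifier. They were chosen by the serum change of AXIN2, the lowest of the abundant genes, so the serum values of AXIN2 are given as a description without a test, and the other 9 were taken as known genes of the same pathway. The cells were HCT116, a human colon carcinoma line that carries an activating mutation of CTNNB1, the gene of beta-catenin. All cells received a short interfering RNA (siRNA) with Oligofectamine, which targeted PFDN2 (siPFDN2) or PFDN5 (siPFDN5) or was a control sequence (siControl). Both target genes code for parts of prefoldin, a chaperone that hands unfolded actin and tubulin to the chaperonin TRiC. Serum was withdrawn 24 h after the siRNA for 48 h in every group, and cells were taken before serum was given back or 90 min after it. Each of the 6 groups had 2 libraries, and no label says that they came from separate cultures, so p-values measure the spread between libraries, which may be technical.

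In the Wnt pathway, a secreted ligand binds a Frizzled receptor and an LRP co-receptor, and this stops a destruction complex built on axin from marking beta-catenin for degradation. Beta-catenin then enters the nucleus, binds the TCF/LEF transcription factors and switches on target genes. Several of these targets turn the pathway down again: AXIN2 rebuilds the destruction complex, NKD1 binds Dishevelled, and RNF43 and ZNRF3 are membrane ubiquitin ligases that remove Frizzled from the cell surface. LGR5 is the R-spondin receptor that marks intestinal stem cells, and ASCL2 is a transcription factor of the same cells. In colorectal cancer cells with stabilised beta-catenin, AXIN2 is widely used as a readout of the pathway.

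Counts over whole gene bodies, introns included, came to between 59784425 and 136504590 per library. Levels are given in CPM, counts relative to the scaled total of the library, and fold changes as log2 values with their standard error (SE). PFDN2 was at 7.55 and 8.49 CPM in siPFDN2 before serum against 11.5 and 11.2 CPM in siControl, and at 8.73 and 9.47 CPM after serum against 19.5 and 16.3 CPM. PFDN5 was at 41.0 and 44.2 CPM in siPFDN5 before serum against 76.8 and 68.9 CPM in siControl. After serum PFDN5 had 67.5 and 68.6 CPM in the libraries labelled siPFDN5, overlapping siControl at 67.9 and 74.0 CPM. In exon counts it had 78.0 and 79.6 CPM there, below siControl at 87.3 and 90.1 CPM. Before serum exon counts gave 52.2 and 55.5 CPM against 94.1 and 84.3 CPM. That label is thus not clearly borne out by its target after serum. PFDN2 was higher in the libraries labelled siPFDN5 than in siControl, at 21.75 and 21.05 CPM before serum and 23.06 and 28.7 CPM after it. The second siPFDN2 library before serum stood apart. Its deviation from the mean of all libraries followed GC content with a Spearman correlation of 0.815 across genes, against -0.46 to 0.12 in the other 11, and its group's replicates differed with an SD of 0.68 (log2, across genes) against 0.12 to 0.30 in the other 5. Of 10 colorectal epithelial markers 9 were at 1 CPM or more (summed 2546 to 3679 CPM before serum and 3066 to 3815 CPM after it), with 1 of 6 fibroblast markers (COL1A1), 1 of 6 leukocyte markers (CD68) and 0 of 4 endothelial markers at that level.

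After serum the message of AXIN2, the scaffold that limits beta-catenin, stood at between 20.3% and 31.5% of its level in starved cells. In siControl AXIN2 was at 36.6 and 27.2 CPM before serum, then at 6.52 and 7.53 CPM after it. In siPFDN2 it was at 19.4 and 25.4 CPM before and at 4.64 and 4.47 CPM after. In siPFDN5 it was at 16.5 and 17.6 CPM before and at 5.12 and 5.63 CPM after. All 6 libraries after serum lay below all 6 before it, and the highest value after serum (7.53 CPM) was well under the lowest before (16.5 CPM). The log2 change was -2.18 (SE 0.19) in siControl, -2.30 (SE 0.20) in siPFDN2 and -1.66 (SE 0.19) in siPFDN5, with an average of -2.05 (SE 0.11). Among the 12113 genes with a mean log2 CPM of at least 3, this was the lowest averaged change. AXIN2 lies on chromosome 17 (65528563 to 65561647, minus strand, GRCh38) and overlaps AC004805.1 on the same strand, at a median of 7.85 CPM, with a log2 change of -1.62. Exon counts gave AXIN2 an averaged log2 change of -2.01 (SE 0.11).

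**Figure D1:**
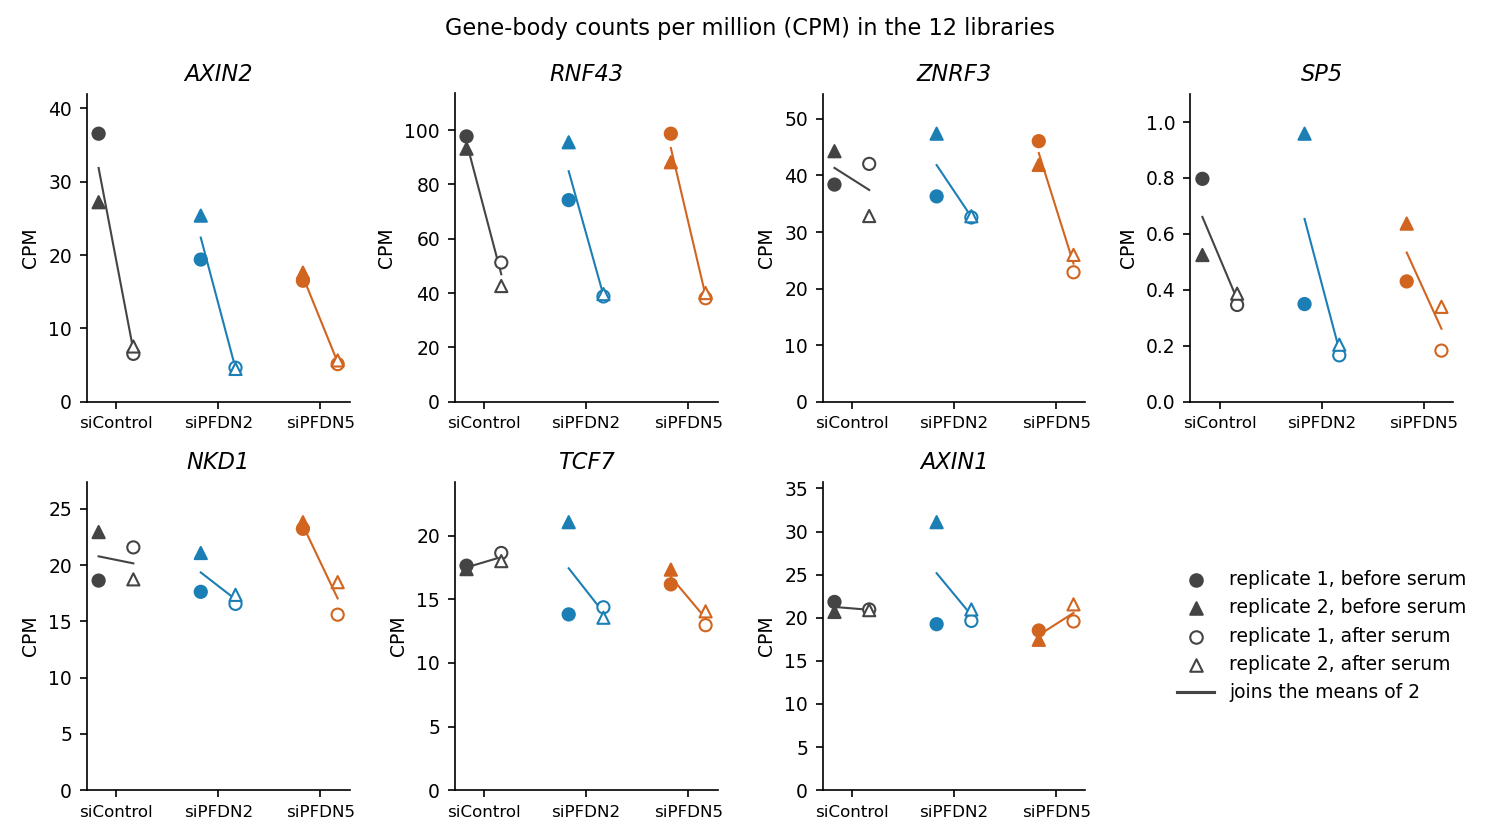
CPM from gene-body counts (vertical axis, linear from 0, a separate scale per gene) in each of the 12 libraries, by siRNA, for the 7 genes that passed the filter on low counts; filled symbols are libraries before serum, open symbols after it, circles replicate 1, triangles replicate 2, and lines join the means of 2 libraries. For AXIN2 every open symbol lies between 4.47 and 7.53 CPM, under every filled one, and RNF43 shows the same separation at a higher level, while AXIN1 before and after serum overlap.

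RNF43, the ubiquitin ligase that clears Frizzled receptors, fell with AXIN2 under every siRNA, to between 41.8% and 49.2% of its starved level. It was at 97.7 and 93.1 CPM before serum, then at 51.2 and 42.6 CPM after it in siControl. In siPFDN2 it went from 74.2 and 95.5 CPM to 38.7 and 39.6 CPM. In siPFDN5 it went from 98.7 and 88.2 CPM to 38.07 and 39.99 CPM. No library after serum reached the lowest value before it. The averaged log2 change was -1.13 (SE 0.09; adjusted p = 1.29e-05, edgeR, quasi-likelihood test, Benjamini-Hochberg over 27915 genes). RNF43 held rank 4 of the 12113 more abundant genes, after AXIN2, ZNF503 and ENSG00000270087. By siRNA the log2 change was -1.02 (SE 0.16) in siControl, -1.12 (SE 0.16) in siPFDN2 and -1.26 (SE 0.16) in siPFDN5, with adjusted p = 0.00457, 0.00327 and 0.00132 in edgeR. The call in siControl was lost without replicate 1 of siControl before serum (adjusted p = 0.0607), and that in siPFDN2 without replicate 1 (0.0684) or replicate 2 (0.0519) of siPFDN2 after serum. RNF43 (chromosome 17, 58352500 to 58417595, minus strand) is overlapped by SUPT4H1 on the same strand and, along most of its length, by TSPOAP1-AS1 on the other, with median levels of 56.1 and 101 CPM, and counting did not use strand.

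ZNRF3, the paralogue of RNF43 with the same action on Frizzled, fell less and, in gene-body counts, less evenly. In siControl it was at 38.4 and 44.3 CPM before serum, then at 42.1 and 32.8 CPM after it, so the libraries overlapped. In siPFDN2 it was at 36.3 and 47.4 CPM before and at 32.6 and 32.8 CPM after. In siPFDN5 it was at 46.1 and 41.9 CPM before and at 22.88 and 25.96 CPM after, the widest separation of the 3. The averaged log2 change was -0.45 (SE 0.10; adjusted p = 0.0153 in edgeR). In siPFDN5 it was -0.85 (SE 0.18; adjusted p = 0.018), and in siControl -0.14 (SE 0.18; adjusted p = 0.866). The averaged call held in 16 of 22 alternative settings and was lost without replicate 1 of siPFDN5 before serum (adjusted p = 0.0598), replicate 2 of siControl before serum (0.0575), replicate 1 (0.056) or 2 (0.0551) of siPFDN2 after serum or replicate 1 of siPFDN5 after serum (0.0674), and in summed transcript estimates (0.0611). The call in siPFDN5 was lost without any 1 of its own 4 libraries (adjusted p from 0.0734 to 0.168). In exon counts the fall of ZNRF3 was even, to 80.5% of its starved level in siControl, 79.4% in siPFDN2 and 81.1% in siPFDN5. Under each siRNA both libraries after serum then lay below both before it, siControl included. ZNRF3 lies on chromosome 22 (28883592 to 29057487, plus strand).

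SP5, a zinc-finger repressor induced directly by beta-catenin, also fell on average, from a level close to the detection limit. It had between 10 and 108 counts per library. In siControl SP5 was at 0.80 and 0.52 CPM before serum, then at 0.35 and 0.39 CPM after it. In siPFDN2 it was at 0.35 and 0.96 CPM before and at 0.17 and 0.20 CPM after, and in siPFDN5 at 0.43 and 0.64 CPM before and at 0.18 and 0.34 CPM after. Within each siRNA both libraries after serum lay below both before it. The averaged log2 change was -1.22 (SE 0.28; adjusted p = 0.0157 in edgeR), and no single siRNA passed the threshold (adjusted p = 0.513 in siControl, 0.0744 in siPFDN2 and 0.195 in siPFDN5). The averaged call was lost without replicate 2 of siPFDN5 before serum (0.0548), replicate 1 of siControl before serum (0.051), replicate 1 of siPFDN2 after serum (0.0508) or replicate 1 of siPFDN5 after serum (0.0527). Without the outlying siPFDN2 library the averaged change was -0.91.

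SP5, RNF43 and AXIN1 are shown here by the sequence upstream of their starts, since SP5 and RNF43 passed the serum test and AXIN1 did not. The 250 bases before the annotated start were taken from RefSeq (GRCh38.p14), which held promoters for 5 of the 10 genes (SP5, LEF1, TCF7, AXIN1 and RNF43), in 7 windows. They were searched on both strands for 4 forms of the core bound by TCF/LEF factors, which are CTTTGAA as one form, CTTTGAT as another, CTTTGTA as the next and CTTTGTT as the last, and which cannot overlap one another on the same strand. Of 35116 promoters of this length 11.96% held at least 1 match and 0.122% held 3 or more. SP5 had 3 matches. They began 148, 109 and 84 bases before the start site and are the 7-base runs in capitals. The 2 windows of RNF43 and the windows of AXIN1 and LEF1 had 0 matches. TCF7 had 1 match in the second of its 2 windows and 0 in the first. A match is a run of letters and does not show binding. The sequences run from 5′ to 3′ on the strand of the gene. SP5 is chr2:170715087-170715336 on the plus strand, RNF43 is chr17:58417535-58417784 on the minus strand, and AXIN1 is chr16:352724-352973 on the minus strand.
SP5: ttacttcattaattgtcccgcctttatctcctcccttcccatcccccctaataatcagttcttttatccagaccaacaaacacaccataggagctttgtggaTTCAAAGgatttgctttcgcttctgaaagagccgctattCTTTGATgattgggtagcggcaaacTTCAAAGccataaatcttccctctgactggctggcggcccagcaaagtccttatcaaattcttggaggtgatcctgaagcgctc
RNF43: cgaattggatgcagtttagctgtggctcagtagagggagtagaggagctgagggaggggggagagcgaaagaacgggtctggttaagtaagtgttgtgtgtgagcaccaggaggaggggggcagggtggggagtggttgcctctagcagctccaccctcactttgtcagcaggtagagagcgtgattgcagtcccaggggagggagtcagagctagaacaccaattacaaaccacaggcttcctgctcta
AXIN1: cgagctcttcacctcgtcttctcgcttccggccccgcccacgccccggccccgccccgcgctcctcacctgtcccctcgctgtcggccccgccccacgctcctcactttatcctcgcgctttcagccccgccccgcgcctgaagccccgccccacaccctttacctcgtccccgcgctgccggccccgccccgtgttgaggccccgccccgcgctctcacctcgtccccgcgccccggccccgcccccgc
The SP5 window had a GC content of 45.6%, the RNF43 window of 56.0% and the AXIN1 window of 77.6%, where GC-rich runs fill most of the sequence.

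NKD1, TCF7 and AXIN1 did not pass the test with AXIN2 in gene-body counts. NKD1, which binds Dishevelled, was at 18.6 and 22.9 CPM before serum, then at 21.6 and 18.7 CPM after it in siControl. In siPFDN2 it was at 17.6 and 21.1 CPM before and at 16.6 and 17.4 CPM after, and in siPFDN5 at 23.2 and 23.8 CPM before and at 15.6 and 18.5 CPM after. The libraries overlapped in siControl and were separate in the other 2. Its averaged log2 change was -0.23 (SE 0.10; adjusted p = 0.121 in edgeR), and in siPFDN5 -0.46 (SE 0.17; adjusted p = 0.0894). TCF7, a DNA-binding partner of beta-catenin, was at 17.7 and 17.4 CPM before and at 18.7 and 18.0 CPM after serum in siControl, and at 16.2 and 17.3 CPM before and at 12.97 and 14.06 CPM after it in siPFDN5. In siPFDN2 TCF7 was at 13.8 and 21.1 CPM before and at 14.4 and 13.6 CPM after. Its averaged log2 change was -0.19 (SE 0.11; adjusted p = 0.242). TCF7 overlaps SKP1 on the other strand, which is at a median of 139.7 CPM.

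AXIN1, the axin that is made constantly and is not a classical target of the pathway, had 21.8 and 20.7 CPM in siControl before serum, and its 2 libraries after serum (21.0 and 20.9 CPM) lay between those values. In siPFDN2 AXIN1 was at 19.3 and 31.1 CPM before and at 19.6 and 21.0 CPM after, and the high value belongs to the library that stands apart. In siPFDN5 it was at 18.5 and 17.4 CPM before and at 19.6 and 21.6 CPM after, the opposite direction to AXIN2. The averaged log2 change was -0.05 (SE 0.11; adjusted p = 0.804 in edgeR). Its sign turned without the outlying library (0.08, adjusted p = 0.28) and with the GC trend removed (0.17, adjusted p = 0.0429), where 15.4% of all genes were called higher. Without the other siPFDN2 library before serum, which leaves the outlying one alone in its group, AXIN1 was called in the opposite direction (-0.14, adjusted p = 0.0411), where 22.58% of all genes were called lower.

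LGR5, LEF1 and ASCL2 did not pass the filter on low counts and were not tested. LGR5 had between 2 and 12 gene-body counts per library and 82 in all, of which 19 were in exons. LEF1, another DNA-binding partner of beta-catenin, had between 1 and 9 counts per library and 50 in all. ASCL2 had 0 to 4 counts, with 5 libraries at 0. A count of 0 allows up to 3 counts, which is 0.022 to 0.050 CPM in these libraries by counting error alone, and a change of these genes was not detectable at this depth.

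Of the 6 genes tested beside AXIN2, 3 were called lower in the averaged serum response and 0 higher, where 7.31% of all genes were called lower, 7.60% higher and 14.9% in either direction. The 3 were RNF43, ZNRF3 and SP5, and DESeq2 also called 3. In siControl 1 of 6 was called lower, RNF43, beside 0.394% of all genes called lower. In siPFDN2 it was also 1, RNF43, beside 1.20%, and in siPFDN5 2, RNF43 and ZNRF3, beside 6.48%. Since the group was chosen in this contrast, these shares are given as a description. The median log2 change of the 6 was -0.34 in the averaged response, against -0.03 over all genes. The plot of serum changes by siRNA shows RNF43 near -1 under all 3 siRNAs, and AXIN1 on both sides of 0.

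**Figure D2:**
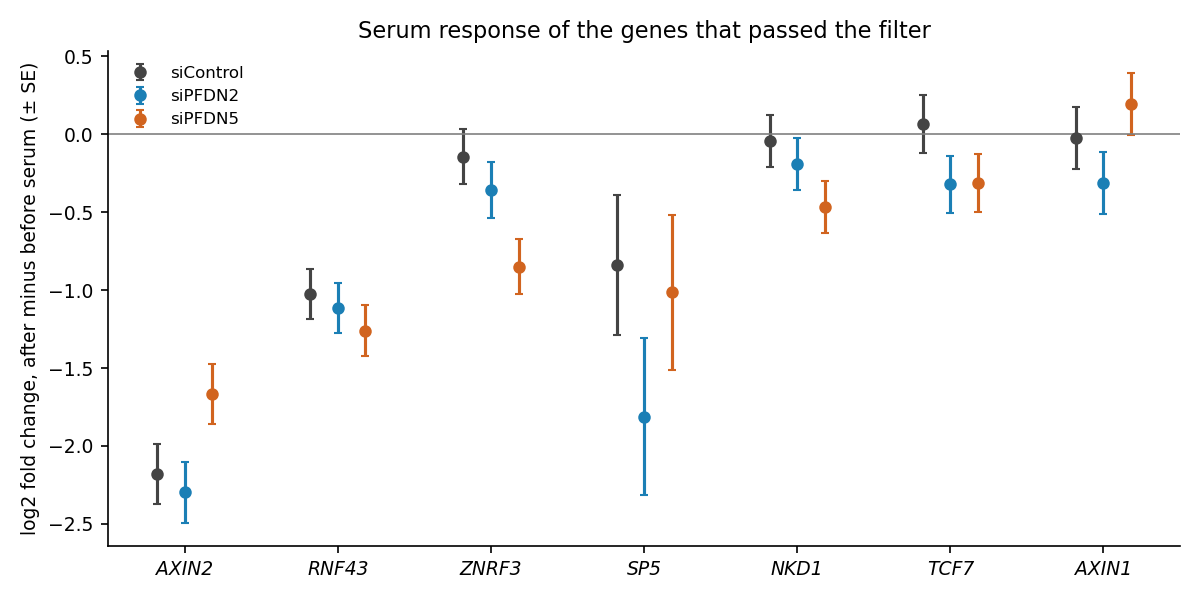
Log2 fold change of gene-body counts after serum against before it (vertical axis, points with SE from the model of all 12 libraries) for the 7 genes that passed the filter, in siControl (grey), siPFDN2 (blue) and siPFDN5 (orange). AXIN2 lies between -2.30 and -1.66, RNF43 between -1.26 and -1.02, and AXIN1 between -0.31 and 0.19.

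Compared per length, as exon CPM per kilobase of annotated exon (RPKM), RNF43 was the most abundant of the 10 genes in all 6 groups. Before serum in siControl it was at 12.7 ± 1.01 RPKM (SD, n = 2), followed by AXIN2 at 6.29 ± 1.33 RPKM and ZNRF3 at 4.95 ± 0.167 RPKM. The libraries of AXIN2 (7.24 and 5.35 RPKM) and ZNRF3 (5.07 and 4.83 RPKM) did not overlap, although their means differed by about 1 SD of AXIN2. AXIN1 was at 2.93 ± 0.078 RPKM, TCF7 at 1.64 ± 0.013 RPKM, NKD1 at 1.30 ± 0.168 RPKM and SP5 at 0.391 ± 0.111 RPKM. After serum in siControl AXIN2 held rank 5, at 1.42 ± 0.167 RPKM, within its spread of NKD1 at 1.28 ± 0.091 RPKM, and it held rank 6 after serum in siPFDN2 (0.921 ± 0.026 RPKM) and siPFDN5 (1.08 ± 0.089 RPKM). On this measure the order of AXIN1 and AXIN2 was thus opposite before and after serum. The order of genes depends on the length used, since the annotated exons of a gene are pooled over its transcripts. They came to 7487 bases for AXIN1, whose main transcript AXIN1-202 has 3324. For TCF7 they came to 10063 bases, and its main transcript TCF7-203 has 2815. The order by length of the main transcript was not computed.

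Fragments outside exons can come from RNA that is not yet spliced, and in these NKD1 was called lower as well as RNF43 and ZNRF3. Intronic counts are gene-body counts minus exon counts, scaled to their own totals. They can also hold fragments from exons of an overlapping gene, such as TSPOAP1-AS1 along RNF43, at a median of 35.0 exon CPM. That part was not separated. AXIN2 had 30.8 and 23.7 intronic CPM before serum and 5.25 and 5.53 after it in siControl, and its averaged log2 change was -2.25 (SE 0.14). RNF43 had 84.4 and 107 intronic CPM before and 52.3 and 28.7 after in siControl, and 158.5 and 122 before and 28.97 and 29.68 after in siPFDN5. Its averaged log2 change in intronic counts was -1.58 (SE 0.16; adjusted p = 1.82e-06 in edgeR), and in exon counts -1.02 (SE 0.09; adjusted p = 4.38e-05). NKD1 passed the test in intronic counts with -1.04 (SE 0.18; adjusted p = 0.000478), while its exon counts gave -0.16 (SE 0.09; adjusted p = 0.244), and the difference between the 2 kinds of count was not tested. ZNRF3 gave -0.58 (SE 0.18; adjusted p = 0.0224) in intronic and -0.32 (SE 0.09; adjusted p = 0.0421) in exon counts. Of the members beside AXIN2, 3 of 6 were called lower in exon counts (RNF43, ZNRF3 and SP5) beside 5.11% of all genes, and 3 of 5 in intronic counts (RNF43, NKD1 and ZNRF3) beside 15.1%. SP5 has few intronic fragments, 12 in all, and did not enter the intronic test.

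**Figure D3:**
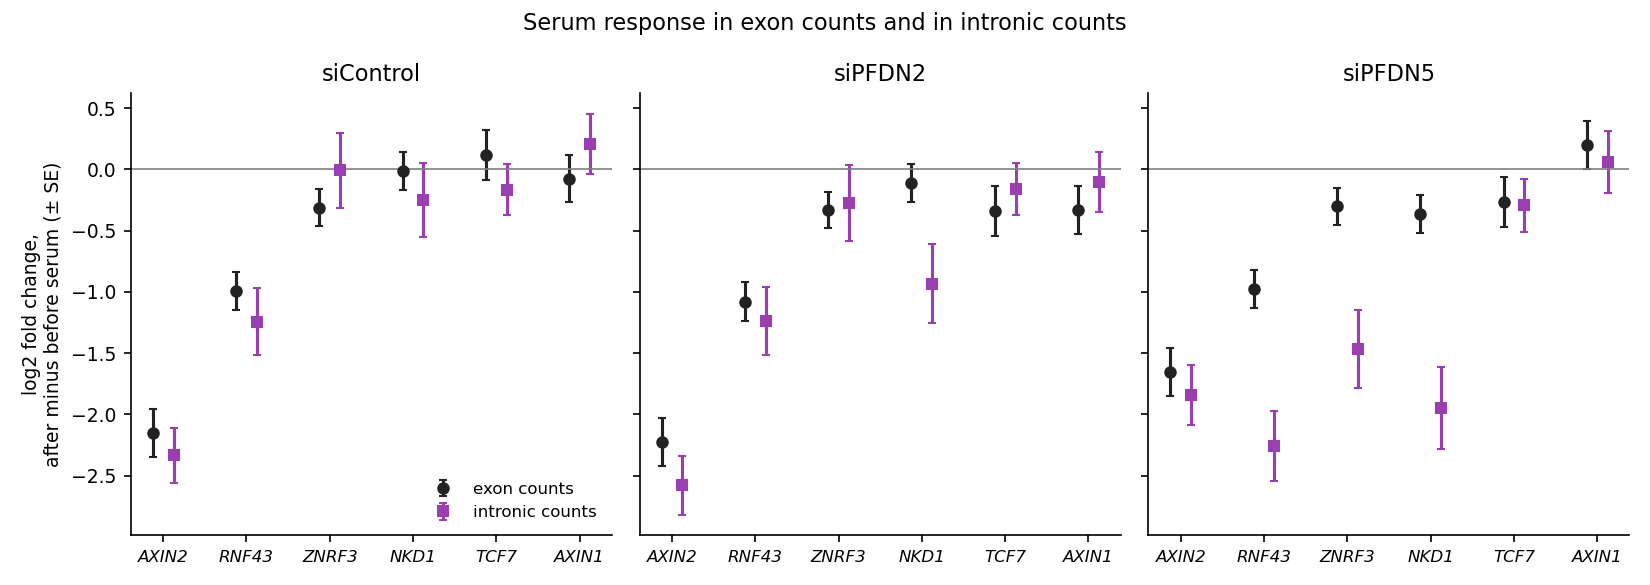
Log2 fold change after serum against before it (vertical axis, with SE) in exon counts (circles) and in intronic counts (squares) for 6 genes, in a panel per siRNA. In siPFDN5 the squares of RNF43, ZNRF3 and NKD1 lie at -2.26, -1.47 and -1.95 and the circles at -0.98, -0.30 and -0.36, while in siControl ZNRF3 and NKD1 have squares at -0.01 and -0.25.

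In intronic counts the serum responses of NKD1 and ZNRF3 differed between siPFDN5 and siControl in the fit of all 12 libraries. NKD1 had 20.8 and 19.3 intronic CPM before serum and 4.49 and 5.85 after it in siPFDN5, against 10.3 and 15.3 before and 14.01 and 7.62 after in siControl. ZNRF3 had 109 and 97.1 before and 32.3 and 42.1 after in siPFDN5, against 51.2 and 90.0 before and 90.6 and 50.1 after in siControl, where the 2 libraries of each time moved in no common direction. The difference of the 2 serum responses was -1.70 (SE 0.45; adjusted p = 0.0323 in edgeR) for NKD1 and -1.46 (SE 0.44; adjusted p = 0.0417) for ZNRF3, and -1.02 (SE 0.39; adjusted p = 0.0862) for RNF43. In this comparison 12.5% of all genes were called, and 8.95% in that direction, and it was chosen after the data had been seen. With 1 library left out at a time, both calls held in 3 of 12 fits and were lost in the other 9. They held without either siPFDN2 library before serum, or without replicate 2 of siControl after serum. Far fewer of all genes were called in the 9 fits than in the 3, so the losses are not particular to these 2 genes. Over the 12 fits the difference lay between -2.08 and -1.20 for NKD1 and between -1.93 and -0.97 for ZNRF3. Without replicate 1 of siControl after serum the differences were -1.20 and -0.97. The share of all counts outside exons moved in the same way: in siPFDN5 it was 22.8% and 25.9% before serum and 17.2% and 14.8% after it, and in siControl 14.99% and 17.34% before and 20.6% and 16.2% after. The part of that shift in the result was not tested. In exon counts the difference for ZNRF3 was 0.01 (SE 0.21; adjusted p = 0.989). Of the gene-body counts of ZNRF3 in siPFDN5, 52.0% and 47.8% lay outside exons before serum and 18.5% and 21.7% after it.

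Most transcripts of AXIN2 and RNF43 had lower estimates after serum. AXIN2 had 9 annotated transcripts with estimates, 7 with at least 1% of the gene, and 6 of these were lower after serum under all 3 siRNAs. For RNF43 it was 4 of 5. The coding transcript AXIN2-209 held 42.2% to 57.5% of the gene before serum and 44.0% to 86.5% after it in 11 libraries. RNF43-208 held 81.5% to 86.3% before and 84.5% to 88.7% after. In the outlying siPFDN2 library AXIN2-209 was listed at 0 and RNF43-203 held 33.0% of its gene, against 1.11% to 4.92% in the other 11, so transcript shares of that library were not used for these ranges.

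Before serum AXIN2 was lower with either knockdown siRNA, although no member was called. With siPFDN5 the mean was 53.5% of siControl, and the 2 libraries (16.5 and 17.6 CPM) lay below both of siControl (36.6 and 27.2 CPM). The log2 difference was -0.90 (SE 0.19; adjusted p = 0.156 in edgeR, unadjusted p = 0.000518). It passed the threshold without either siPFDN2 library before serum (adjusted p = 0.00392 without replicate 1 and 0.00399 without replicate 2), after removal of the GC trend (0.0209) and by DESeq2 (0.00489), where 3.89% (without replicate 2), 0.269% and 0.240% of all genes were called lower. Without replicate 1 of siControl before serum the log2 difference was -0.68 and AXIN2 did not pass, which was not particular to AXIN2 among all genes. With siPFDN2 the mean was 70.2% of siControl, a log2 difference of -0.51 (SE 0.19; adjusted p = 0.442). After serum AXIN2 was at 64.8% of siControl with siPFDN2 (log2 difference -0.63, SE 0.19, adjusted p = 0.772) and at 76.5% with the libraries labelled siPFDN5 (-0.39, SE 0.19, adjusted p = 0.262). In all 4 comparisons both libraries with the siRNA named lay below both of siControl, which the comparisons within a time share. After serum PFDN5 itself overlapped siControl in gene-body counts of the libraries labelled siPFDN5. Both libraries also lay below both of siControl after serum for NKD1, RNF43, ZNRF3, TCF7 and SP5 in both comparisons, but not for AXIN1. For ZNRF3 with siPFDN2 the margin was narrow, at 32.58 and 32.79 CPM against 42.05 and 32.83 CPM in siControl. Of the other members tested, AXIN1 and TCF7 showed it before serum with siPFDN5 in gene-body counts, where NKD1 lay above both siControl libraries. In exon counts TCF7 and NKD1 overlapped siControl there, and AXIN1, RNF43 and ZNRF3 lay below it. RNF43 was at 81.5 and 79.3 exon CPM against 100.5 and 89.8, and ZNRF3 at 28.3 and 27.5 against 35.3 and 33.7. The share of all genes separated in this way was not counted, so these separations are not read as a trait of the members.

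In gene-body counts the other 6 members tested differed from siControl before serum by between -0.30 and 0.24 on the log2 scale. After serum some stood as far from it as AXIN2. SP5, at 0.35 and 0.39 CPM in siControl after serum, was at 50.4% of that level with siPFDN2 (log2 difference -0.97, SE 0.52, adjusted p = 0.772 in edgeR) and at 71.3% with the libraries labelled siPFDN5 (-0.47, SE 0.49, adjusted p = 0.609). In both cases both libraries lay below both of siControl. RNF43 lay between -0.26 and -0.03 in the 4 comparisons. ZNRF3 was at 65.2% of siControl after serum with the libraries labelled siPFDN5 (log2 difference -0.62, SE 0.18, adjusted p = 0.101 in edgeR), and TCF7 at 73.7% (-0.44, SE 0.19, adjusted p = 0.202). Both passed with the GC trend removed (adjusted p = 0.0186 for ZNRF3 and 0.0281 for TCF7) and without the outlying siPFDN2 library (0.00325 and 0.0042), and DESeq2 called ZNRF3 (0.0381). Under these 3 settings 5.57%, 10.1% and 3.62% of all genes were called lower. In edgeR 0 of 7 members were called in each of the 4 comparisons, where 0.00716% of all genes were with siPFDN5 before serum, 0.00358% with siPFDN5 after it and 0% with siPFDN2 at either time. At an unadjusted p under 0.05 there was 1, AXIN2, in each of siPFDN2 before serum, siPFDN5 before serum and siPFDN2 after serum, and there were 2, ZNRF3 and TCF7, with the libraries labelled siPFDN5 after serum. The shares of all genes at that level were 11.3%, 12.3%, 6.26% and 21.6%. DESeq2 called 0, 1, 0 and 1.

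**Figure D4:**
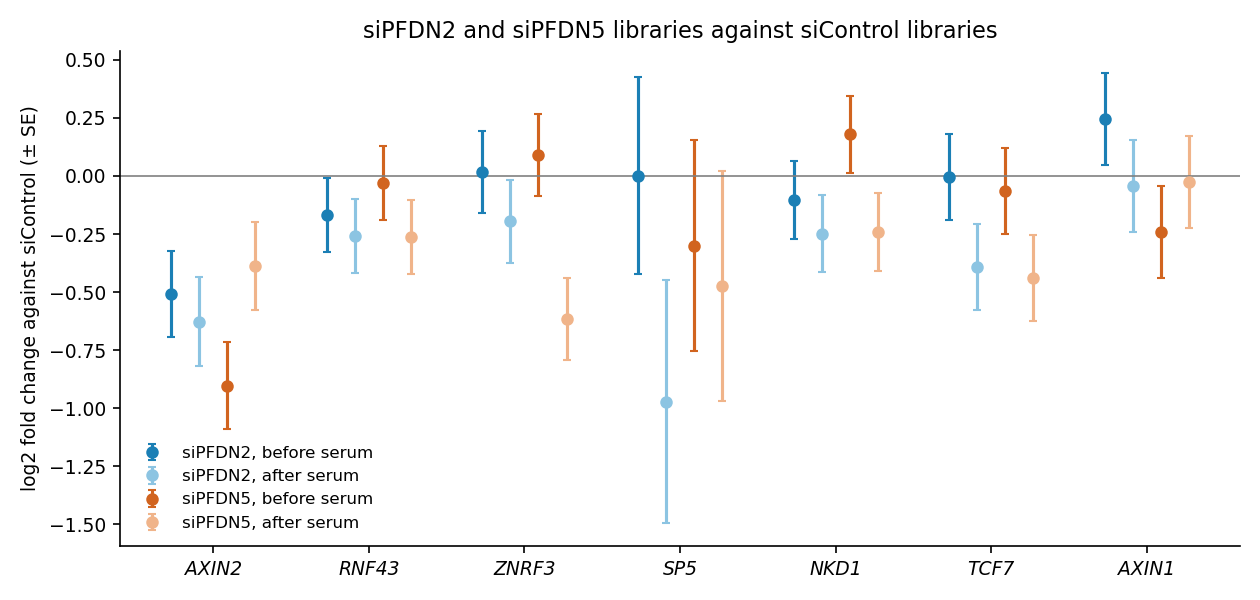
Log2 difference of gene-body counts between siPFDN2 or siPFDN5 and siControl (vertical axis, with SE) for the 7 genes that passed the filter, before serum (dark) and after it (light), with siPFDN2 in blue and siPFDN5 in orange. AXIN2 lies between -0.90 and -0.39 in all 4 comparisons, which share siControl libraries within a time. No point passed an adjusted p of 0.05. After serum PFDN5 overlapped siControl in gene-body counts of the libraries labelled siPFDN5.

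The serum response itself was tested for a difference from siControl. For AXIN2 it was 0.52 (SE 0.27; adjusted p = 0.298 in edgeR) for siPFDN5, where AXIN2 was lower before serum and its change was smaller, and -0.12 (SE 0.27; adjusted p = 0.843) for siPFDN2. The latter changed sign without the outlying library (0.09). RNF43 differed by -0.23 (SE 0.22; adjusted p = 0.595) and -0.09 (SE 0.22; adjusted p = 0.858). ZNRF3 differed by -0.70 (SE 0.25; adjusted p = 0.147) for siPFDN5, which passed with the GC trend removed (adjusted p = 0.0438) and without replicate 1 (0.0147) or 2 (0.0145) of siPFDN2 before serum. In those settings 4.66% and, without replicate 2, 9.58% of all genes were called lower. No member was called in either difference by edgeR or DESeq2, and at an unadjusted p under 0.05 there were 0 for siPFDN2 and 1, ZNRF3, for siPFDN5, beside 6.60% and 20.9% of all genes.

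Across the 12 libraries RNF43 followed AXIN2 most closely. Genes with a mean log2 CPM of at least 3, an averaged log2 change of -1 or lower and no overlap with AXIN2 numbered 6, and the 5 with the highest Pearson correlation with AXIN2 in log2 CPM were RNF43 (0.955), GID4 (0.918), ZNF503 (0.911), HOXB6 (0.885) and ENSG00000270087 (0.861). ENSG00000270087 is annotated as a long noncoding RNA and overlaps ZNF503, so those 2 may share fragments. Among the members, SP5 had 0.868, ZNRF3 0.697, TCF7 0.569, NKD1 0.561 and AXIN1 0.225. All 12 libraries carry the serum difference that chose AXIN2, so these values describe how far each gene shares it. In the ranking by averaged change, ZNF503 (-1.62, SE 0.18) and ENSG00000270087 (-1.16, SE 0.16) stood between AXIN2 and RNF43. ZNRF3 was at rank 428, NKD1 at 1858, TCF7 at 2355 and AXIN1 at 4497 of 12113.

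Other genes of the pathway moved in both directions after serum. Of 112 genes in 6 lists 97 were tested, and 15 were called lower and 6 higher in the averaged response. Of all genes 7.31% were called lower and 7.60% higher. The median log2 change of the 97 was -0.15, against -0.03 over all genes. Of 16 intracellular signalling genes, among them APC, GSK3B, CTNNB1 and the Dishevelled genes, 0 were called in edgeR and 1 in DESeq2. In either direction 14.9% and 18.11% of all genes were called. With the GC trend removed 5 of these 16 were called lower, beside 13.01% of all genes, and 6 without the outlying siPFDN2 library, beside 12.54%.

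Among 24 further targets 6 were called lower and 3 higher, beside 7.31% and 7.60% of all genes. EPHB3, a receptor kinase that positions cells in the intestinal crypt, was at 4.54 to 9.25 CPM before serum, then at 1.80 to 2.69 CPM after it, a log2 change of -1.43 (SE 0.15; adjusted p = 0.000118 in edgeR), and it was called under each of the 3 siRNAs. SOX4 fell by 0.58 on the log2 scale (SE 0.08; adjusted p = 0.000794). MYC, a growth regulator that serum also induces, rose by 0.61 (SE 0.10; adjusted p = 0.00295), ID2 by 1.11 (SE 0.18; adjusted p = 0.00194) and MSX1 by 0.76 (SE 0.10; adjusted p = 0.000447). Known targets of beta-catenin were thus called on both sides of 0.

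Of 16 receptor genes tested 2 were called lower and 1 higher, beside 7.31% and 7.60% of all genes. FZD7 was at 11.7 to 14.4 CPM before serum, then at 6.49 to 8.38 CPM after it, with a log2 change of -0.80 (SE 0.09; adjusted p = 0.00021 in edgeR). FZD2 changed by -0.68 (SE 0.13; adjusted p = 0.00483). Both encode Frizzled receptors, the proteins that RNF43 and ZNRF3 remove. Of 12 antagonists 0 were called lower and 1 higher, beside the same shares. The gene called higher was DKK1, a secreted blocker of the LRP co-receptors. DKK1 was at 66.5 to 126.6 CPM before and at 202 to 440.1 CPM after serum, a log2 change of 1.66 (SE 0.13; adjusted p = 9.54e-06), and was called under each siRNA.

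Of 17 ligand and secretion genes 3 were called lower and 1 higher, beside 7.31% and 7.60% of all genes. The gene called higher was WNT9A, which rose by 1.09 (SE 0.16; adjusted p = 0.000988 in edgeR). Of 12 nuclear cofactors 4 were called lower and 0 higher, beside the same shares. TCF7L1, a TCF factor that mostly represses, changed by -0.95 (SE 0.22; adjusted p = 0.0167), with overlapping libraries before (4.72 to 12.3 CPM) and after serum (3.10 to 8.30 CPM). Its largest adjusted p among 19 alternatives was 0.055, and it was lost without replicate 1 of siPFDN2 after serum, replicate 1 of siPFDN5 after serum or replicate 2 of siControl after serum. The other 9 genes named from the lists were called in all 19. Without the outlying siPFDN2 library the lists held 28 genes called lower and 12 higher of 98 tested, where 12.54% of all genes were called lower and 14.94% higher. By siRNA, TCF7L2 (-1.28, SE 0.24, adjusted p = 0.012), ROR1 (-0.88, SE 0.21, adjusted p = 0.025) and MSX2 (0.60, SE 0.15, adjusted p = 0.0307) were called in siPFDN5, and BAMBI was called in siControl (-0.75, SE 0.17, adjusted p = 0.041). In edgeR 0 of the 97 were called for siPFDN2 or siPFDN5 against siControl at either time or for either difference of the serum response. At an unadjusted p under 0.05 there were 18 with the libraries labelled siPFDN5 after serum, beside 21.6% of all genes, and 12 for the difference under siPFDN5, beside 20.9%. There were 10 and 6 with siPFDN2 and siPFDN5 before serum, beside 11.3% and 12.3%, 12 with siPFDN2 after serum, beside 6.26%, and 8 for the difference under siPFDN2, beside 6.60%. DESeq2 called 7 with the libraries labelled siPFDN5 after serum and 5 for the difference under siPFDN5, beside 6.85% and 6.20% of all genes, and 0 in the other 4 comparisons.

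**Figure D5:**
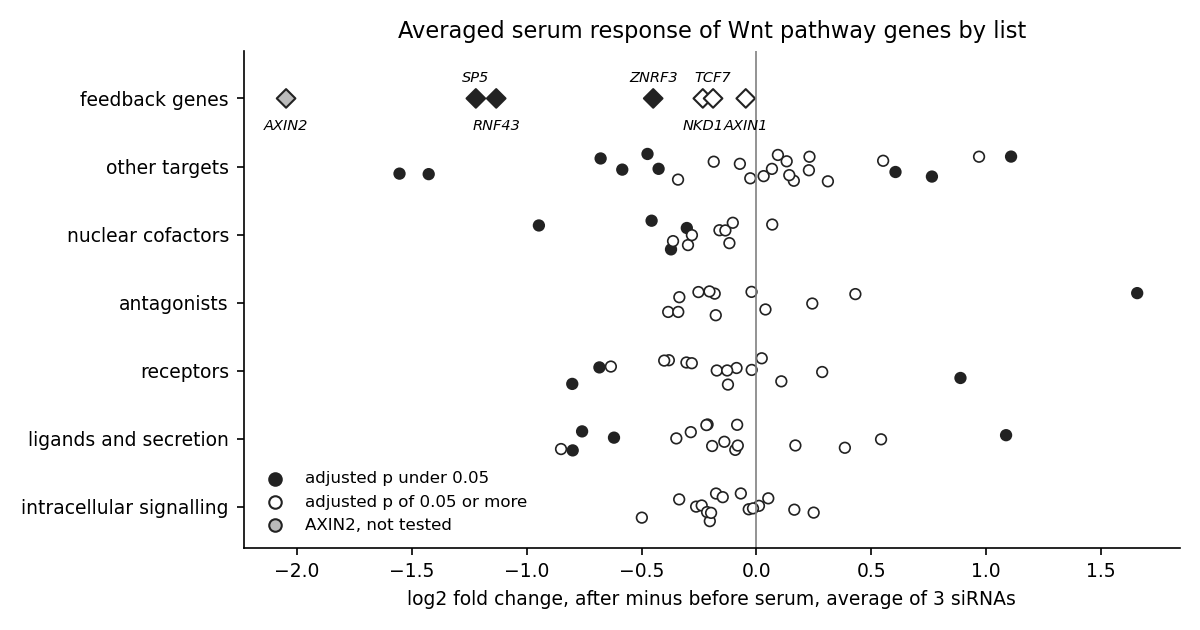
Averaged log2 fold change after serum against before it (horizontal axis) for each tested gene of the 6 pathway lists (circles, with small vertical offsets) and for the 7 members that passed the filter (diamonds, in the row labelled feedback genes, AXIN1 and TCF7 included); filled symbols have an adjusted p under 0.05 and AXIN2 in grey was not tested. The filled circles lie on both sides of 0, from SP8 at -1.55 to DKK1 at 1.66, with EPHB3 at -1.43. The intracellular signalling genes have none. SP8 had a mean log2 CPM under 1 and is not described in the text.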

How the data were processed

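The members and gene lists were chosen with earlier results of these data known. RNA-seq of 12 libraries in 6 groups was used, and groups and replicate numbers come from the sample titles. Per the labels' protocols, RNA was treated with DNase, depleted of 18S rRNA and copied with random primers. The authors deposited raw counts per gene over gene bodies and over exons. Per the file headers, featureCounts counted fragments on Ensembl 87 genes of GRCh38, without strand, and counted a fragment over several genes for each. The submitters' processing notes name HISAT2 0.12.2, featureCounts 1.5.2 and kallisto 0.43. The deposited files per sample hold estimated counts per transcript, which were rounded where summed per gene. A further 6 columns of the tables match no sample and were not used. Gene positions are from GENCODE 29.

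Gene-body counts were filtered (filterByExpr, 27915 of 58051 genes), scaled by TMM and fitted with 6 group means over all libraries in edgeR 4.0.16 (R 4.3.3; glmQLFit, robust). The 10 comparisons were the serum response (per siRNA and averaged), siPFDN2 and siPFDN5 against siControl at each time, and the 2 differences of the serum response from siControl. Tests are two-sided quasi-likelihood tests with Benjamini-Hochberg adjustment over all genes, called under 0.05. CPM uses the TMM-scaled totals, and the log2 scale a prior count of 2. A promoter match is an exact string. Named list genes are the 5 largest changes in each direction among those called with a mean log2 CPM of at least 1. Alternatives were DESeq2 1.42.0, its size factors, library size only, no filter, removal of a GC trend per library (lowess), exon counts, summed transcript estimates, a replicate block and each library left out. Intronic counts per comparison were added after seeing the data. The model was tested on simulated data.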

Additional observations from a re-analysis of the deposited data

Results flagged for a closer look

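NKD1 in intronic counts was singled out because its serum response differed between siPFDN5 and siControl in the test of that difference, by -1.70 on the log2 scale (SE 0.45; adjusted p = 0.0323 in edgeR). Both siPFDN5 libraries after serum (4.49 and 5.85 intronic CPM) lay below both before it (20.8 and 19.3), and in siControl the libraries overlapped. ZNRF3 was singled out in the same way, with a difference of -1.46 (SE 0.44; adjusted p = 0.0417). Both calls rested on all 12 libraries, in a comparison where 12.5% of all genes were called. They were lost in 9 of 12 fits with 1 library left out, in which far fewer of all genes were called.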

How the results depend on the processing

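The averaged serum change of AXIN2 lay between -2.25 and -1.95 in 22 alternative settings, and RNF43 was called lower in all 22. ZNRF3 was called in 16 of 22 and SP5 in 17 of 21. Scaling by library size alone moved the median averaged serum change of all genes to -0.17, and NKD1 then passed (-0.37, adjusted p = 0.0364), as it did in intronic counts.

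In siPFDN2 the number of members called after serum rose from 1 to 2, with SP5 added, by library size only, DESeq2 or no filter, where the share of all genes called lower went from 1.20% to 10.20%, 6.907% and 7.045%. In siPFDN5 it rose from 2 to 5 with the GC trend removed and to 4 with the replicate block and the GC trend removed, where that share went from 6.48% to 12.96% and 11.74%, and was 1 in exon counts and in summed transcript estimates. For siPFDN5 against siControl before serum it was 1 (AXIN2) with DESeq2, no filter, the GC trend removed, or the replicate block and the GC trend removed. In these settings 0.240%, 0.305%, 0.269% and 0.0896% of all genes were called lower. After serum it was 1 (ZNRF3) with DESeq2 or no filter, beside 3.618% and 4.007% of all genes called lower. It was 2 (ZNRF3 and TCF7) with the GC trend removed, without the block (beside 5.574%) or with it (3.744%). For the difference of the serum response in siPFDN5 it was 1 (ZNRF3) with the GC trend removed and 2 (NKD1 and ZNRF3) in intronic counts. Of all genes 4.661% and 8.95% were called lower there. The replicate block alone left every count of members at its value (3 in the averaged serum response). In intronic counts it moved the difference of ZNRF3 in siPFDN5 to an adjusted p of 0.0535. Whether the replicate numbers pair the samples was not settled: correlations of the replicate difference between groups ran from -0.32 to 0.59 over 15 pairs of groups, and 4 were above 0.1. The cause of these shifts was not tested.

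With 1 library left out, the remaining library of its group is assumed to vary like the other groups. The number called then ranged from 1 to 6 in the averaged serum response, from 0 to 1 in siControl, from 0 to 5 in siPFDN2 and from 1 to 5 in siPFDN5. It ranged from 0 to 1 for siPFDN2 and siPFDN5 before serum, was 0 for siPFDN2 after serum, and ranged from 0 to 2 for siPFDN5 after serum, from 0 to 3 for the difference in siPFDN2, from 0 to 1 for the difference in siPFDN5, from 1 to 6 in exon counts and from 2 to 3 in intronic counts. Without replicate 1 of siPFDN2 before serum, which leaves the outlying library alone in its group, the counts for the averaged response, siPFDN2, siPFDN2 before serum, the difference in siPFDN2 and exon counts were at their highest. In those fits 47.26%, 48.62%, 41.76%, 37.70% and 51.10% of all genes were called. Without either siPFDN2 library before serum those for siPFDN5 were, where 35.98% (without replicate 1) and 36.34% (without replicate 2) of all genes were called after serum in siPFDN5. The count for the averaged response was at its lowest without replicate 1 of siPFDN2 or siPFDN5 after serum. That for siControl was lowest without its replicate 1 before serum, and that for siPFDN2 without either of its libraries after serum. For siPFDN5 the count was lowest without any 1 of its own 4 libraries. In each of these fits a smaller share of all genes was called lower than with all 12 libraries.

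The averaged change of AXIN1 turned positive with the GC trend removed (0.17, and 0.17 with the block), without the outlying library (0.084, against -0.14, adjusted p = 0.0411, without the other library of its group) and in intronic counts (0.057). The difference of AXIN2 in siPFDN2 turned positive with the GC trend removed (0.080, and 0.081 with the block) and without replicate 2 of siPFDN2 before serum (0.09), of siControl before serum (0.090) or of siControl after serum (0.08), and was -0.34 without replicate 1 of siControl before serum. The difference of ZNRF3 in siPFDN5 turned positive in exon counts (0.012) and in summed transcript estimates (0.046). Depth limits LGR5, LEF1, ASCL2 and SP5.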
